A study of Caenorhabditis elegans with 24 samples.

Results

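Spermatogenesis genes other than the msp genes were followed in 24 poly(A) RNA libraries of whole *Caenorhabditis elegans* collected on day 3. They were chosen by name alone: the numbered genes of the ssp, ssq, sss, nspd, spch, msd and spe families, with *smz-1*, *smz-2*, *gsp-3*, *gsp-4*, *fer-1*, *cpb-1*, *cpb-2* and *comp-1*. This gave 67 of the 20191 protein-coding genes in the table, of which 25 are spe genes, 12 ssp, 10 nspd, 4 msd, 4 ssq, 3 spch and 1 sss. The 5 groups were *abl-1* KO animals on quercetin (5 libraries), *abl-1* KO animals left untreated (5), wild-type (wt) animals on quercetin (5), wt animals on lutein (4) and wt animals left untreated (5). Quercetin is a plant flavonoid and lutein a plant carotenoid, and both were given at 100 µM from the egg onwards, on plates of HT115 bacteria carrying the empty vector pL4440. Untreated animals received the same DMSO and Tween 80 solvent. The labels give strain NV48 as wt and strain NV50, which carries the ok171 deletion, as *abl-1* KO, so each genotype is 1 strain, and loss of *abl-1* cannot be told apart from the rest of the strain background. Both strains came out of 1 cross, of an *abl-1* mutant with a line that expresses human amyloid-beta in its neurons, and the labels give neither as carrying that transgene. The study's methods for these libraries name them as amyloid-beta strains instead, and the groups here follow the labels. Each library pooled many animals. The study describes the libraries of a group as biological replicates, and p-values measure the spread between these libraries.

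*C. elegans* hermaphrodites make sperm for a short time at the end of larval life and then switch the germ line to oocytes for good, so that adult animals fertilise their oocytes with a stored supply. Spermatocytes transcribe their genes early, then divide by meiosis and shed ribosomes and most of the cytoplasm, and the crawling sperm cell that results makes no new RNA. Its movement runs on the major sperm proteins of the msp genes, and the genes described here encode relatives of these proteins, small sperm peptides, sperm chromatin proteins, the factors that assemble and activate the cell, and its surface proteins for fertilisation.

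The level of *abl-1*, which encodes the ABL tyrosine kinase, separated the strains in every library: 1.71 to 2.14 RPKM in the 10 *abl-1* KO libraries and 6.85 to 7.77 RPKM in the 14 wt libraries. RPKM is the number of reads on a gene scaled to its exon length and to the mapped reads of the library. The depth, as read from the spacing of low values, was 27.4 to 45.3 M mapped reads, so that 1 read on a gene of 330 bases, the exon length of *msd-2* and *msd-4*, was worth 0.0670 to 0.111 RPKM. Tests covered the 12771 genes that reached 0.5 RPKM in 4 or more libraries, among them 45 of the 67 spermatogenesis genes. Some passed only through the few libraries in which they were high, as *spe-4* with 4 libraries at or over 0.5 RPKM and *spe-11* and *ssp-31* with 5 each, so counts over the 45 do not speak for all 67. The 22 others stayed at or under 0.674 RPKM, the highest value of *msd-3*, in their best library, and *nspd-8* was listed at 0 in every library. Whole animals were sequenced, and more sperm or spermatocytes cannot be told apart from more RNA per cell.

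**Figure D1:**
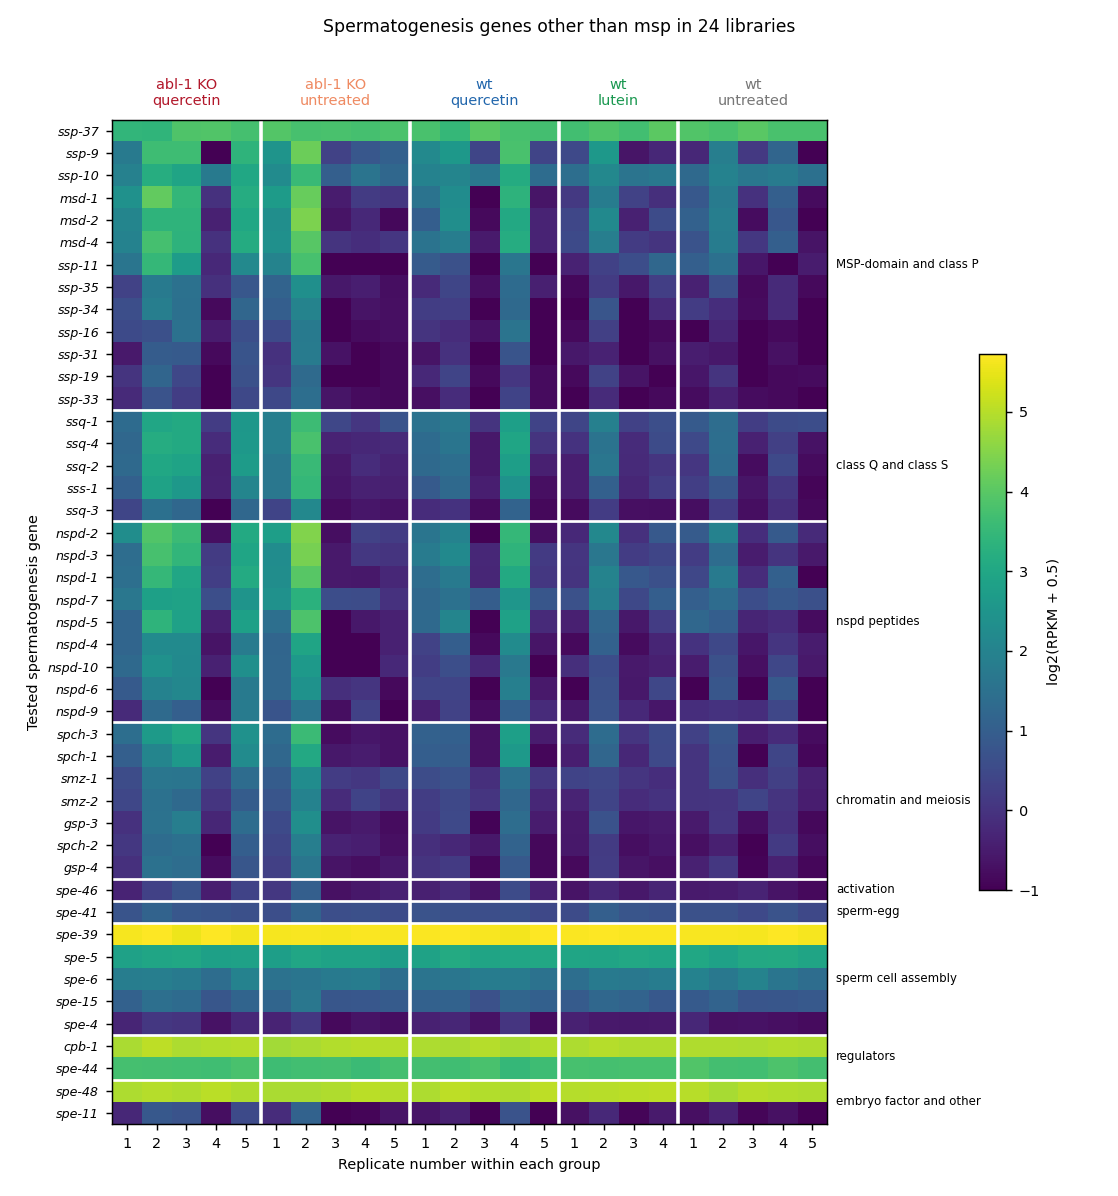
Level of the 45 tested spermatogenesis genes (rows, grouped by role) in 24 libraries (columns, by group and replicate number), as log2(RPKM + 0.5). Bright columns in the upper rows are *abl-1* KO quercetin replicates 2, 3 and 5, *abl-1* KO untreated replicate 2 and wt quercetin replicate 4, while *ssp-37*, *spe-39*, *spe-5*, *cpb-1*, *spe-44* and *spe-48* keep one shade across all libraries.

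Genes of the MSP-domain families (msd, for major sperm protein domain, and ssp, sperm-specific family class P) encode small relatives of the major sperm proteins. Summed over their 16 members they reached 58.9 ± 30.5 RPKM in *abl-1* KO quercetin libraries, 46.4 ± 47.6 RPKM in *abl-1* KO untreated, 35.5 ± 22.6 RPKM in wt quercetin, 24.96 ± 9.55 RPKM in wt lutein and 23.8 ± 6.85 RPKM in wt untreated libraries (mean ± SD, n = 4 for lutein and 5 for each other group). The SD of the *abl-1* KO untreated group was as large as its mean, because replicate 2 held 128 RPKM and replicate 3 only 17.0 RPKM.

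The class P gene *ssp-9* was measured at 2.91, 12.0, 12.0, 0 and 9.88 RPKM in *abl-1* KO quercetin replicates 1 to 5 and 5.05, 18.2, 0.752, 1.27 and 1.60 RPKM in *abl-1* KO untreated replicates 1 to 5. In wild type it had 3.96, 5.54, 0.818, 13.5 and 0.791 RPKM in wt quercetin replicates 1 to 5, 0.908, 5.50, 0.146 and 0.334 RPKM in wt lutein replicates 1 to 4 and 0.348, 3.20, 0.592, 1.78 and 0 RPKM in wt untreated replicates 1 to 5. Every group held a library under 1 RPKM and a library above 3 RPKM, and no pair of groups was separate. The *msd-1* gene had 4.77, 16.8, 10.4, 0.474 and 8.51 RPKM in *abl-1* KO quercetin replicates 1 to 5 and 5.91, 17.4, 0.212, 0.634 and 0.538 RPKM in *abl-1* KO untreated replicates 1 to 5. Its wt values were 2.48, 4.30, 0, 9.63 and 0.149 RPKM in wt quercetin replicates 1 to 5, 0.590, 3.05, 0.753 and 0.439 RPKM in wt lutein replicates 1 to 4 and 1.31, 3.01, 0.477, 1.55 and 0.0690 RPKM in wt untreated replicates 1 to 5. High values of *msd-1* were in the same libraries as those of *ssp-9*, with *abl-1* KO untreated replicate 2 at the top of both. Next came *abl-1* KO quercetin replicate 2 for *msd-1* and wt quercetin replicate 4 for *ssp-9*. For *msd-2* the mean over all libraries was 3.48 RPKM (range 0 to 20.7), and for *msd-4* it was 3.45 RPKM (range 0.140 to 15.4). The remaining msd gene, *msd-3*, was listed at 0 in 21 libraries. Of the other class P genes *ssp-10* was never under 1.55 RPKM (mean 3.99 RPKM, highest 11.2), while *ssp-16*, *ssp-19*, *ssp-31*, *ssp-33*, *ssp-34* and *ssp-35* had means between 0.364 RPKM for *ssp-33* and 0.897 RPKM for *ssp-35*. Under the filter were *ssp-32* (0.0497 RPKM) and *ssp-36* (0.124 RPKM).

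One class P gene behaved unlike the rest. *ssp-37* stood at 10.2, 10.2, 14.2, 14.4 and 13.0 RPKM in *abl-1* KO quercetin replicates 1 to 5 and 14.8, 13.1, 13.4, 13.0 and 13.8 RPKM in *abl-1* KO untreated replicates 1 to 5, and at 13.3, 10.7, 15.7, 13.2 and 12.8 RPKM in wt quercetin replicates 1 to 5, 12.5, 14.1, 12.4 and 15.8 RPKM in wt lutein replicates 1 to 4 and 14.5, 13.4, 15.5, 13.4 and 13.4 RPKM in wt untreated replicates 1 to 5, which is a range of 1.55-fold. It had the highest mean of its families (13.4 RPKM), and in wt untreated replicate 5, where the others were lowest, it was 13.4 of the 16.3 RPKM of the role group. *ssp-9* and *ssp-11* (mean 2.24 RPKM, range 0 to 13.3) lie close together on chromosome IV, at 4994371 to 4994700 and 4999485 to 4999814 in the WBcel235 genome by RefSeq. Members of these families are close copies of each other, and how reads that match more than 1 copy were counted is not given in the sources used here, so the split between such genes is uncertain.

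The genes of class Q (*ssq-1* to *ssq-4*) and class S (*sss-1*) encode other sperm-specific families whose biochemical role is not settled. All 5 passed the filter. Their sum was 19.1 ± 13.6 RPKM in *abl-1* KO quercetin, 13.8 ± 21.3 RPKM in *abl-1* KO untreated, 9.55 ± 10.3 RPKM in wt quercetin, 4.43 ± 4.21 RPKM in wt lutein and 3.61 ± 2.88 RPKM in wt untreated libraries (SD, n = 4 for lutein, otherwise 5). *ssq-1* was found at 2.06, 7.44, 8.06, 0.654 and 5.41 RPKM in *abl-1* KO quercetin replicates 1 to 5 and 3.17, 11.8, 0.845, 0.551 and 1.14 RPKM in *abl-1* KO untreated replicates 1 to 5. Among wt libraries its level was 2.42, 2.78, 0.501, 6.52 and 0.786 RPKM in wt quercetin replicates 1 to 5, 0.815, 3.32, 0.724 and 1.04 RPKM in wt lutein replicates 1 to 4 and 1.39, 2.13, 0.658, 0.949 and 1.02 RPKM in wt untreated replicates 1 to 5. In all 5 groups the lowest library was under 1 RPKM, and the groups overlapped throughout. *ssq-4* averaged 2.62 RPKM (range 0.131 to 13.4), and *sss-1* averaged 1.92 RPKM (range 0.0322 to 10.7), with the same library, *abl-1* KO untreated replicate 2, at the top of each. The other 2 of class Q, *ssq-2* and *ssq-3*, averaged 2.34 and 0.703 RPKM and were highest in that library too.

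The nspd genes encode nematode-specific peptides of group D, which are transcribed in the male germ line of *C. elegans*. Of the 10 genes, 9 were tested. They summed to 39.3 ± 27.4 RPKM in *abl-1* KO quercetin, 27.5 ± 42.1 RPKM in *abl-1* KO untreated, 18.7 ± 20.3 RPKM in wt quercetin, 8.66 ± 7.73 RPKM in wt lutein and 7.43 ± 5.44 RPKM in wt untreated libraries (SD, n = 4 for lutein, otherwise 5). *nspd-2*, the highest of them, had 4.41, 14.5, 11.5, 0.0906 and 8.06 RPKM in *abl-1* KO quercetin replicates 1 to 5 and 6.35, 21.5, 0.0946, 0.754 and 0.648 RPKM in *abl-1* KO untreated replicates 1 to 5. It had 2.59, 3.48, 0, 10.7 and 0.0995 RPKM in wt quercetin replicates 1 to 5, 0.351, 3.92, 0.458 and 1.34 RPKM in wt lutein replicates 1 to 4 and 1.42, 3.44, 0.425, 1.38 and 0.369 RPKM in wt untreated replicates 1 to 5. Under 1 RPKM were 1 of the 5 *abl-1* KO quercetin, 3 of the 5 *abl-1* KO untreated, 2 of the 5 wt quercetin, 2 of the 4 wt lutein and 2 of the 5 wt untreated libraries. *nspd-3* spanned 0.184 to 19.9 RPKM, *nspd-5* 0 to 13.8 RPKM, *nspd-4* 0 to 7.12 RPKM and *nspd-10* 0 to 5.63 RPKM. The means of *nspd-1*, *nspd-7*, *nspd-6* and *nspd-9* were 3.16, 2.70, 1.21 and 0.776 RPKM. Of these *nspd-7* was above 0 in every library (range 0.481 to 9.32 RPKM), and *nspd-9* was highest in *abl-1* KO quercetin replicate 5, not in *abl-1* KO untreated replicate 2.

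Sperm chromatin and meiosis genes comprised *spch-1*, *spch-2* and *spch-3*, which encode the basic proteins that pack sperm DNA, *smz-1* and *smz-2*, which encode PDZ-domain proteins of sperm meiosis, and *gsp-3* and *gsp-4*, which encode PP1 phosphatases needed for sperm meiosis and sperm crawling. Together these 7 genes reached 14.8 ± 9.75 RPKM in *abl-1* KO quercetin, 10.5 ± 15.3 RPKM in *abl-1* KO untreated, 7.51 ± 8.17 RPKM in wt quercetin, 3.87 ± 2.77 RPKM in wt lutein and 2.85 ± 1.78 RPKM in wt untreated libraries (SD, n = 4 for lutein, otherwise 5). *spch-3* gave 2.19, 5.84, 7.75, 0.518 and 4.84 RPKM in *abl-1* KO quercetin replicates 1 to 5 and 2.11, 11.6, 0.0832, 0.166 and 0.127 RPKM in *abl-1* KO untreated replicates 1 to 5. In wt animals it gave 1.63, 1.57, 0.113, 6.43 and 0.219 RPKM in wt quercetin replicates 1 to 5, 0.386, 2.09, 0.524 and 0.924 RPKM in wt lutein replicates 1 to 4 and 0.721, 1.26, 0.234, 0.380 and 0.0813 RPKM in wt untreated replicates 1 to 5. Its libraries overlapped between every pair of groups. *gsp-3* was much lower, at 0.477, 2.41, 3.16, 0.325 and 2.10 RPKM in *abl-1* KO quercetin replicates 1 to 5 and 0.935, 4.47, 0.141, 0.197 and 0.0860 RPKM in *abl-1* KO untreated replicates 1 to 5, and at 0.614, 0.911, 0.0256, 2.17 and 0.208 RPKM in wt quercetin replicates 1 to 5, 0.184, 1.12, 0.164 and 0.201 RPKM in wt lutein replicates 1 to 4 and 0.196, 0.551, 0.0953, 0.464 and 0.0552 RPKM in wt untreated replicates 1 to 5. *spch-1* averaged 1.68 RPKM, *spch-2* 0.664 RPKM, *smz-1* 1.16 RPKM, *smz-2* 0.928 RPKM and *gsp-4* 0.611 RPKM, and all 7 genes were highest in *abl-1* KO untreated replicate 2. The smz genes fell less far in the low libraries, with lowest values of 0.250 RPKM for *smz-1* and 0.229 RPKM for *smz-2*, whereas *gsp-3* went down to 0.0256 RPKM.

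The regulators gave a flat picture. *spe-44* encodes a transcription factor that switches on a large share of the sperm genes in spermatocytes. It had 12.9, 12.7, 12.4, 12.3 and 13.4 RPKM in *abl-1* KO quercetin replicates 1 to 5 and 12.0, 12.3, 12.7, 11.5 and 12.8 RPKM in *abl-1* KO untreated replicates 1 to 5. The wt levels were 12.7, 12.2, 13.3, 10.7 and 12.0 RPKM in wt quercetin replicates 1 to 5, 13.0, 13.0, 13.1 and 13.1 RPKM in wt lutein replicates 1 to 4 and 14.5, 12.7, 12.3, 14.0 and 12.8 RPKM in wt untreated replicates 1 to 5. Its highest value was 1.35 times its lowest, and the 5 libraries with the most ssp, nspd and spch RNA held 10.7 to 13.4 RPKM of it, against 11.5 to 14.5 RPKM in the other 19. Its lowest value of all was in 1 of those 5, wt quercetin replicate 4. *cpb-1*, a CPEB-type RNA-binding protein needed for spermatocytes to complete meiosis, ranged from 27.5 to 33.1 RPKM over all 24 libraries. Its relative *cpb-2* was far lower, at 0.120 RPKM on average (range 0 to 0.447), and was highest in *abl-1* KO untreated replicate 2.

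**Figure D2:**
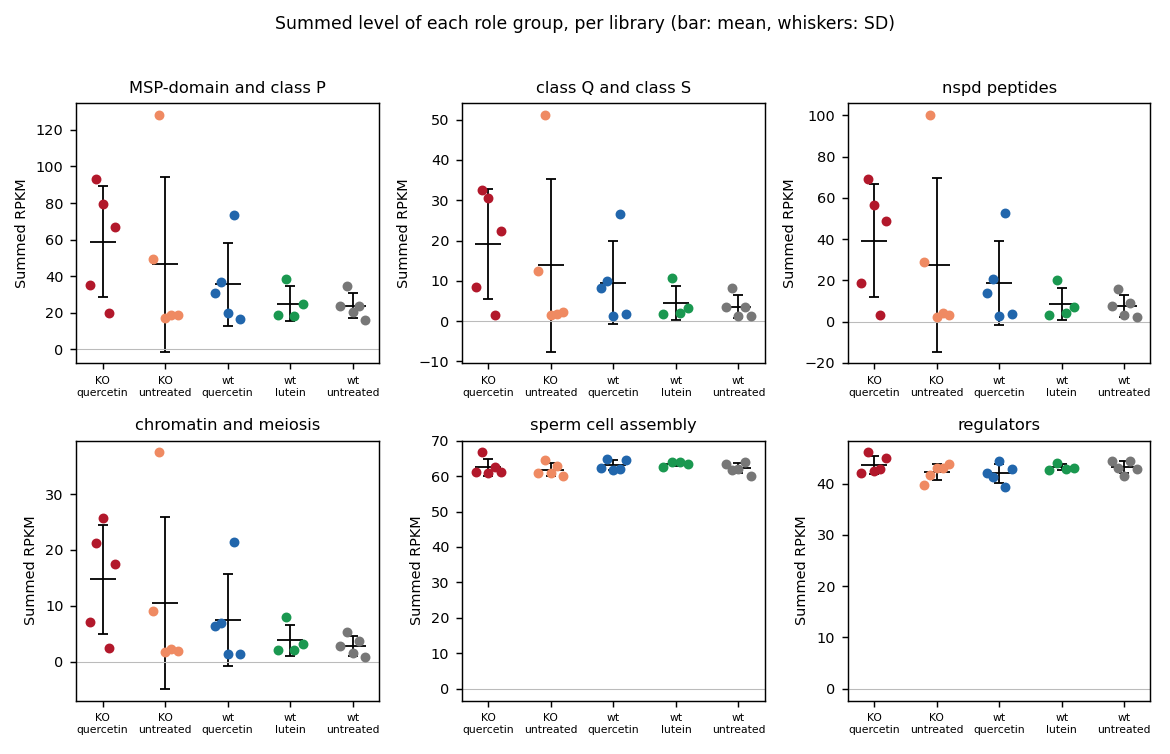
Summed RPKM of 6 role groups, 1 point per library, with the mean (bar) and SD (whiskers) of each group (n = 4 for wt lutein, 5 for the others). In the first 4 panels *abl-1* KO untreated replicate 2 stands far above the other libraries of its group, while sperm cell assembly genes lie between 60.1 and 66.7 RPKM and regulators between 39.4 and 46.1 RPKM in every library.

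Genes for assembling the sperm cell fell into steady and low members. *spe-39* encodes a vesicle traffic protein that works with the VPS complexes in many tissues and in the making of the membranous organelles of sperm. It had the highest mean of all 67 genes, with a range of 46.7 to 52.6 RPKM, and *spe-5*, a subunit of the vacuolar proton pump, had 6.25 to 8.18 RPKM. *spe-6*, a casein kinase 1 type enzyme that acts in meiosis and restrains early activation, had 2.14 to 3.52 RPKM, and *spe-15*, a class VI myosin that sorts material into the residual body, had 1.09 to 2.71 RPKM. These 4 genes made up nearly all of the role group's sum.

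The remaining assembly genes were low. *spe-4*, which encodes a presenilin of the sperm organelles, averaged 0.248 RPKM and passed the filter because 4 libraries reached 0.5 RPKM. *fer-1*, the ferlin that lets the membranous organelles fuse with the cell surface, averaged 0.0925 RPKM (range 0.0363 to 0.250), with its highest values in wt quercetin replicate 4 and *abl-1* KO quercetin replicate 3. *spe-10* and *spe-26* had means of 0.0472 and 0.251 RPKM. *spe-26* overlaps R10H10.3 on the opposite strand, a gene with 31.9 RPKM on average.

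The activation genes carry the signal by which a round spermatid becomes a crawling sperm. *spe-8*, *spe-12*, *spe-19*, *spe-27*, *spe-29* and *spe-43* act in 1 pathway of hermaphrodites, and their means lay between 0.0173 RPKM for *spe-29* and 0.131 RPKM for *spe-12*, which is at or below the worth of a few reads in a library. *spe-46* and *spe-47* keep spermatids from activating too early. *spe-46* averaged 0.406 RPKM, reached 1.57 RPKM in *abl-1* KO untreated replicate 2, and alone of the 8 genes was tested. *spe-47* averaged 0.334 RPKM (range 0.137 to 0.647).

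Genes for meeting and entering the oocyte were low, apart from *spe-41*. *spe-9*, *spe-38*, *spe-42* and *spe-49* encode surface proteins of sperm needed for fertilisation, and none of these averaged over 0.0341 RPKM. *spe-41*, a TRPC-type calcium channel with the same duty, averaged 1.14 RPKM (range 0.865 to 1.71), with its highest values in *abl-1* KO quercetin replicate 2 and *abl-1* KO untreated replicate 2 (1.71 and 1.70 RPKM). *comp-1*, which acts in the competition between sperm, averaged 0.123 RPKM (range 0 to 0.460) and was not tested in the fit. *spe-38* shares its strand with the overlapping gene *impt-1* (34.4 RPKM), and its level of 0.0341 RPKM was worth an estimated 0.522 reads in the median library and 3.14 in the highest.

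*spe-11*, which sperm bring into the egg for the first steps of the embryo, averaged 0.369 RPKM and followed the high libraries, from 0 to 1.68 RPKM. *spe-48* was steady at 28.5 to 32.8 RPKM. Among the 45 tested genes the SD within groups had a median of 0.872 on the log2(RPKM + 0.5) scale, against 0.128 for all 12771 tested genes. It was above the 90th percentile of all tested genes for 35 of the 45. The 10 others were *spe-39*, *cpb-1*, *spe-48*, *spe-44*, *spe-5*, *ssp-37*, *spe-41*, *spe-6*, *spe-15* and *spe-4*. The 40 genes with a mean of at most 10 RPKM had a median SD of 0.901, against 0.205 for the 6264 tested genes with such a mean. The 2 sets were not matched for level under that limit. Some of the 40 also passed the filter only through the few libraries in which they were high, which favours a large spread.

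The libraries with high values were the same from role group to role group. In *abl-1* KO untreated replicate 2 stood the highest value of 36 of the 45 tested genes (80.0%), whereas 15.5% of all tested genes had their highest value there. Some of the 45 passed the filter only through their few high libraries, which raises that share. Without the filter it was 42 of the 66 members that were above 0 in any library. Summed over the 37 genes of the ssp, msd, ssq, sss, nspd, spch, smz and gsp families without the steady *ssp-37*, that library held 304 RPKM. The next libraries were *abl-1* KO quercetin replicates 2, 3 and 5 with 206, 178 and 142 RPKM and, between them, wt quercetin replicate 4 with 161 RPKM. The sixth library, *abl-1* KO untreated replicate 1, held 84.9 RPKM, and the lowest, wt untreated replicate 5, held 7.05 RPKM, which is 43.04 times less than the highest.

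By group this sum was 119.6 ± 81.2 RPKM in *abl-1* KO quercetin (range 12.8 to 206, median 142), 84.6 ± 126 RPKM in *abl-1* KO untreated (range 9.02 to 304, median 13.6), 58.1 ± 61.8 RPKM in wt quercetin (range 9.63 to 161, median 46.02), 28.2 ± 23.6 RPKM in wt lutein (range 13.5 to 63.2, median 18.1) and 23.6 ± 17.2 RPKM in wt untreated libraries (range 7.05 to 50.7, median 23.3; SD, n = 4 for lutein, otherwise 5). The lowest libraries of the 5 groups lay between 7.05 and 13.5 RPKM, and all groups overlapped. Replicate 2 was the highest library in *abl-1* KO quercetin, *abl-1* KO untreated, wt lutein and wt untreated. In wt quercetin replicate 4 was highest, and replicate 2 came next with 63.5 RPKM. What the replicate number stands for is not given by the labels, and whether it had a part in these levels was not tested.

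Where the sum was high, its make-up was alike. In the 5 libraries with the highest sums *ssp-9* contributed 5.86% to 8.40% of it, *nspd-2* 5.67% to 7.08%, *msd-1* 5.74% to 8.16% and *ssq-1* 3.62% to 4.53%. These libraries came from 3 of the 5 groups. Across the 37 genes the log2(RPKM + 0.5) values of any 2 of these libraries correlated with r between 0.94 and 0.98, which is a description across genes that share libraries and are not independent replicates. The same r was not computed for the other libraries, so it does not set these 5 apart.

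**Figure D3:**
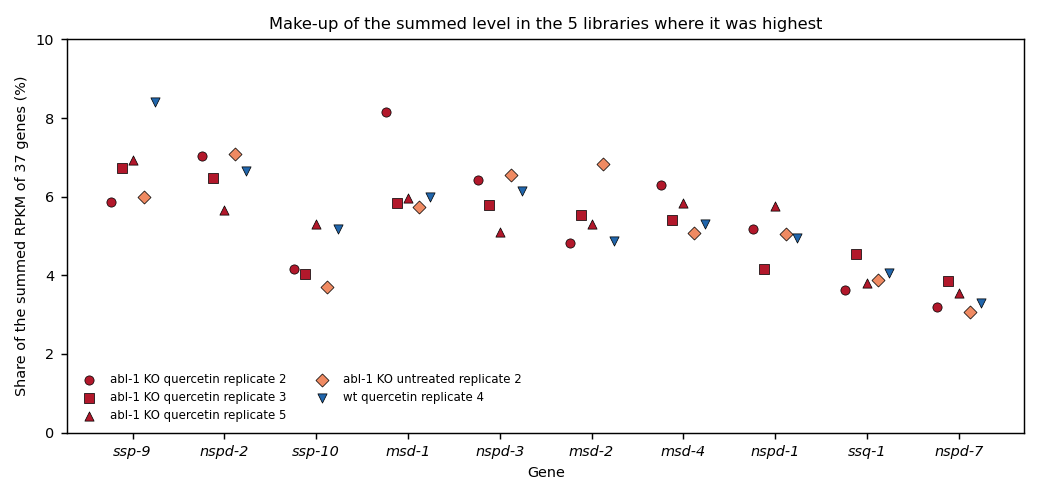
Share (%) of the summed RPKM of 37 sperm family genes that each of the 10 highest genes contributed, in the 5 libraries with the highest sums (1 marker per library, coloured by group). The shares of *ssp-9* lie between 5.86% and 8.40%, those of *ssq-1* between 3.62% and 4.53%.

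The msp genes moved with these families. Their summed RPKM ran from 4.54 to 620, and over the 24 libraries its log2 value correlated with that of the summed families (*ssp-37* included) with Pearson's r = 0.97 and Spearman's rho = 0.98 (100000-fold permutation p = 1e-05 for each, the smallest that these permutations can give, adjusted p = 9e-05 over 9 relations). Without the 2 libraries farthest from the median, *abl-1* KO untreated replicate 2 and *abl-1* KO quercetin replicate 2, r was 0.96, and with group means removed it was 0.96 (permutation p = 1e-05 within groups). The lists were chosen with earlier results of these data known. The permutations also treat libraries as independent, although same-numbered libraries tended to deviate together over all tested genes. The p-values of this relation and of those below are therefore descriptive and do not test a list as a set. In the 5 libraries with the highest sums the msp genes held 1.91 to 2.15 times the summed RPKM of the 37 family genes, and over all 24 libraries 0.644 to 2.22 times. Of the sperm genes outside these names, 9 were in the table, and their sum was 76.2 to 88.6 RPKM over the 24 libraries. Most of it came from *zipt-7.1* (47.5 to 53.2 RPKM), *swm-1* (18.5 to 28.1 RPKM) and *elt-1* (4.76 to 8.04 RPKM), none of which was highest in any of the 5 libraries. Whole animals cannot show which cells the RNA of these 3 genes came from, so the steady sum says little of sperm. The remaining 6 were low. Among them *alg-3* and *alg-4*, Argonautes of the sperm small RNA pathway, the sperm histone gene *htas-1* and the kinase gene *gska-3* were highest in *abl-1* KO untreated replicate 2, at 0.944, 0.904, 3.06 and 1.30 RPKM, *peel-1* in *abl-1* KO quercetin replicate 2 (0.285 RPKM) and *snf-10* in *abl-1* KO quercetin replicate 5 (0.255 RPKM). Of the 28 msp genes tested none was called by limma in any of the 7 comparisons, nor was any gene of the other marker lists.

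The summed level of genes for the switch between sperm and oocytes showed no such course. For the 10 genes of the sperm-oocyte decision (fog, fem, tra, gld-1 and her-1) the summed RPKM lay between 703 and 788 in all libraries, and its correlation with the summed families was r = 0.16 and rho = -0.0026 (permutation p = 0.453 and 0.992). Most of this sum was *gld-1* (498 to 558 RPKM), so it says little of the other genes. *fem-3* was highest in *abl-1* KO quercetin replicate 2 (50.4 RPKM) and *abl-1* KO untreated replicate 2 (43.6 RPKM), the libraries with the most sperm family RNA. In *abl-1* KO quercetin replicates 3 and 5 and wt quercetin replicate 4 it was at 35.8, 35.5 and 36.6 RPKM, under its median of 37.7 RPKM. For *spe-44* r was -0.24 and rho -0.20 (permutation p = 0.267 and 0.356), and for *cpb-1* r was -0.16 and rho -0.28 (permutation p = 0.46 and 0.181). Adjusted over 9 relations, these p values lay between 0.257 and 0.992.

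Markers of other cells and stages were read beside the same libraries. The 8 male soma genes in the table summed to 0.375 to 0.947 RPKM, and none of them reached the filter. Oocyte and eggshell genes summed to 7806 to 8846 RPKM and yolk genes to 15308 to 17337 RPKM. Intestine, body wall muscle and neuron markers summed to 239.6 to 363, 297 to 450 and 162 to 192 RPKM. The neuron sum was highest in the 2 libraries richest in sperm family RNA, *abl-1* KO quercetin replicate 2 (192 RPKM) and *abl-1* KO untreated replicate 2 (184 RPKM). The next, *abl-1* KO quercetin replicate 4, held 183 RPKM. Intestine and muscle sums were highest in other libraries. Those 2 libraries also held the highest value of 14.7% and 15.5% of all tested genes. The oocyte and yolk sums ran against the sperm families over all libraries (r = -0.41, permutation p = 0.0487, adjusted p = 0.0877, and r = -0.49, permutation p = 0.0157, adjusted p = 0.037), with rho of -0.34 and -0.39 (permutation p = 0.108 and 0.0582, adjusted p = 0.243 and 0.175). Germ line genes gave r = -0.48 (permutation p = 0.0165, adjusted p = 0.037) and rho = -0.43 (permutation p = 0.0343, adjusted p = 0.154). Without the 2 libraries farthest from the median these r values were -0.14, -0.18 and -0.15, so the relations rest on those libraries. Within groups r was -0.42, -0.52 and -0.40 (adjusted permutation p = 0.241, 0.118 and 0.204).

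Molting genes summed to 21.4 to 44.1 RPKM (r = 0.54, permutation p = 0.00587, adjusted p = 0.0264, and rho = 0.30, permutation p = 0.162, adjusted p = 0.257). Without the same 2 libraries r was 0.54 and rho 0.11, and within groups r was 0.45 (permutation p = 0.0624, adjusted p = 0.187). The highest molting sums, 44.1 RPKM in *abl-1* KO quercetin replicate 3 and 42.4 RPKM in wt quercetin replicate 4, were in libraries that stayed in. This check therefore does not show whether the relation rests on them. The cuticle collagen gene *bli-2*, picked out after its values were seen, was at 5.14 RPKM in *abl-1* KO quercetin replicate 3 and at 5.21 RPKM in wt quercetin replicate 4, both among the 5 libraries rich in sperm family RNA, and at no more than 0.609 RPKM in any other library. In *abl-1* KO untreated replicate 2, with the most sperm family RNA, it was at 0.498 RPKM. Male soma genes gave r = 0.25 and rho = 0.27 (permutation p = 0.235 and 0.2, adjusted p = 0.343 and 0.257). Whether differences in stage or in the number of sperm between the collected animals had a part in the sperm gene levels was not tested.

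**Figure D4:**
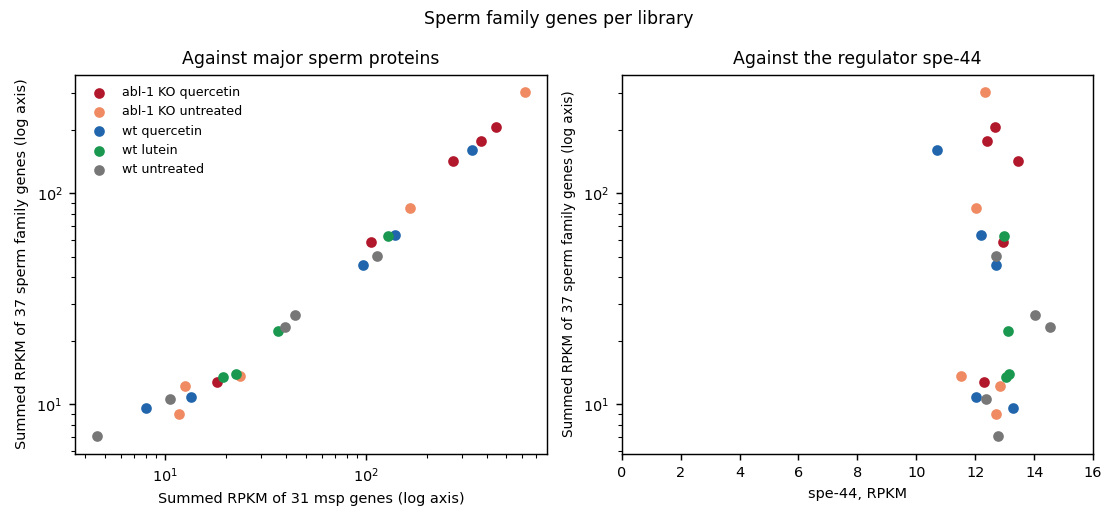
Summed RPKM of 37 sperm family genes in each of 24 libraries (log axis), against the summed RPKM of 31 msp genes (left, log axis) and against the RPKM of *spe-44* (right). The sum runs along with the msp genes from 7.05 to 304 RPKM, while *spe-44* stays between 10.7 and 14.5 RPKM.

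The first comparison asked what quercetin changed in wild type. None of the 45 tested genes was called between wt quercetin and wt untreated libraries (limma on log2(RPKM + 0.5), Benjamini-Hochberg adjusted p of at most 0.05 over 12771 genes), and of all tested genes 0% were called. At an unadjusted p of at most 0.05 the fit had 1 member, *spe-44*, and 173 of all tested genes (1.35%). No member had libraries that did not overlap between the groups, against 0.329% of all tested genes. The fitted log2 fold change was above 0 for 39 of 45 genes, with a median of 0.39, against 0.0054 over all tested genes. The largest were those of *ssp-9* (1.47, SE 0.92) and *nspd-3* (1.34, SE 0.84), and the lowest those of *spe-44* (-0.12, SE 0.05, unadjusted p = 0.0283) and *ssp-37* (-0.10, SE 0.10). The smallest adjusted p of a member was 0.9998. The study used another tool and lists several members, *ssp-9* and *nspd-3* among them, as significantly raised in this comparison and in untreated *abl-1* KO animals. *ssp-9* averaged 4.92 ± 5.22 RPKM in wt quercetin and 1.19 ± 1.31 RPKM in wt untreated libraries (SD, n = 5 each, exact permutation p = 0.127, two-sided, with 0.00794 the smallest that this design allows). For *spe-44* the means were 12.2 ± 0.954 RPKM in wt quercetin and 13.3 ± 0.942 RPKM in wt untreated libraries (SD, n = 5 each, exact permutation p = 0.111). *comp-1*, under the filter, had 0.170 ± 0.147 RPKM in wt quercetin and 0.0178 ± 0.0184 RPKM in wt untreated libraries (SD, n = 5 each, exact permutation p = 0.0159, adjusted p = 0.813 over 198 such tests, of which 3 had an unadjusted p of at most 0.05). Without wt quercetin replicate 4 the median log2 fold change was 0.09, so most of it came from this library.

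Loss of *abl-1* was compared next, in untreated animals. Between *abl-1* KO untreated and wt untreated libraries no member was called, against 0.478% of all tested genes. By unadjusted p there were 2 members, *spe-5* and *spe-44*, and 11.1% of all tested genes. No member's libraries were apart, against 2.09% of all tested genes. The log2 fold changes were above 0 for 39 of 45 genes with a median of 0.54 (0.030 over all tested genes), but without *abl-1* KO untreated replicate 2 the median was 0.03. *ssp-9* (1.39, SE 0.92) and *nspd-3* (1.12, SE 0.84) were again at the top, and *spe-5* (-0.14, SE 0.06) and *spe-6* (-0.11, SE 0.12) at the bottom. *spe-5* had the smallest adjusted p of all members in any comparison (0.368 by limma), with 6.72 ± 0.458 RPKM in *abl-1* KO untreated and 7.47 ± 0.51 RPKM in wt untreated libraries (SD, n = 5 each, exact permutation p = 0.0556). Since both of these comparisons use the untreated wt libraries, they are not independent.

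Quercetin in the mutant was read from *abl-1* KO quercetin against *abl-1* KO untreated libraries. No member was called by limma, nor was any other gene (0% of all tested genes), and by unadjusted p there was no member and 1.82% of all tested genes. No member's libraries were apart, against 0.219%. Log2 fold changes were above 0 for 43 of 45 genes, with a median of 0.59 (-0.0040 over all tested genes). The highest were *ssp-11* (1.40, SE 0.85) and *spch-3* (1.33, SE 0.76), and the lowest *ssp-37* (-0.15, SE 0.10) and *spe-39* (-0.01, SE 0.03). *spch-3* averaged 4.23 ± 2.89 RPKM in *abl-1* KO quercetin and 2.81 ± 4.97 RPKM in *abl-1* KO untreated libraries (SD, n = 5 each, exact permutation p = 0.23). Here 1 untreated library held the highest value and 3 quercetin libraries the next ones, and without *abl-1* KO untreated replicate 2 the median log2 fold change was 1.06.

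Under quercetin, *abl-1* KO was set against wt. No member was called, against 0.485% of all tested genes, and 1 member (*nspd-10*) and 8.18% of all tested genes were under 0.05 before adjustment. No tested member's libraries were apart, against 1.68% of all tested genes. The median log2 fold change was 0.71, above 0 for 41 of 45 genes, against 0.019 over all tested genes. By role the median was 0.93 for the nspd genes, 0.92 for classes Q and S, 0.72 for chromatin and meiosis and 0.64 for the MSP-domain and class P genes, against 0.10 for sperm cell assembly and 0.06 for the regulators. *ssp-11* (1.70, SE 0.85) and *msd-1* (1.51, SE 0.92) were highest, and *ssp-37* (-0.09, SE 0.10) and *spe-5* (-0.08, SE 0.06) lowest. *ssp-11* averaged 4.74 ± 3.90 RPKM in *abl-1* KO quercetin and 1.03 ± 1.10 RPKM in wt quercetin libraries (SD, n = 5 each, exact permutation p = 0.0873). *nspd-10* averaged 3.13 ± 1.96 RPKM in *abl-1* KO quercetin and 0.970 ± 1.10 RPKM in wt quercetin libraries (SD, n = 5 each, exact permutation p = 0.103, limma adjusted p = 0.61). *spe-41* had 1.28 ± 0.254 RPKM in *abl-1* KO quercetin and 1.03 ± 0.0998 RPKM in wt quercetin libraries (SD, n = 5 each, exact permutation p = 0.0238, adjusted p = 0.813 over 198 such tests).

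The difference between the quercetin effect in *abl-1* KO and that in wt was tested as an interaction. No member was called and 0% of all tested genes were, with 1 member (*spe-44*) and 1.59% of all tested genes at an unadjusted p of at most 0.05. The median was 0.17 (-0.0082 over all tested genes) and 34 of 45 genes were above 0. *ssp-11* (1.24, SE 1.20) and *nspd-10* (0.86, SE 0.89) were highest, *ssp-9* (-0.97, SE 1.29) and *nspd-3* (-0.22, SE 1.19) lowest. The median SE of the members was 0.73 (range 0.042 to 1.40), against 0.12 over all tested genes. For the members with a large SE, differences of a size seen here were not detectable at this spread.

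Lutein was the other compound tried in wild type. Between wt lutein and wt untreated libraries no member was called, nor were any of all tested genes (0%), and by unadjusted p there was no member and 1.64% of all tested genes. No tested member's libraries were apart, against 0.822% of all tested genes. The median log2 fold change was 0.09 (0.0092 over all tested genes), above 0 for 34 of 45 genes. *spch-3* (0.50, SE 0.80) and *nspd-3* (0.46, SE 0.89) were highest and *nspd-5* (-0.10, SE 0.91) and *nspd-4* (-0.09, SE 0.74) lowest. Among the genes under the filter *comp-1* had 0.0621, 0.137, 0.108 and 0.0594 RPKM in the lutein libraries against 0, 0, 0.0251, 0.0203 and 0.0435 RPKM in the untreated ones. These groups do not overlap (exact permutation p = 0.00794, the smallest possible here, adjusted p = 0.813 over 198 tests), at no more than 18.8 estimated reads of this gene in any library.

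Quercetin against lutein in wild type, 2 plant compounds of different classes at the same dose, gave no member called and 0% of all tested genes. By unadjusted p there was no member and 1.40% of all tested genes. No tested member's libraries were apart, against 0.626%. The median log2 fold change was 0.34 (-0.0028 over all tested genes), above 0 for 36 of 45 genes, and 0.01 without wt quercetin replicate 4. *ssp-9* (1.32, SE 0.97) and *nspd-5* (0.90, SE 0.91) were highest, and *ssp-11* (-0.19, SE 0.90) and *spe-41* (-0.15, SE 0.12) lowest. The median SE of the members was 0.55 (range 0.031 to 1.05), against 0.09 over all tested genes. The 2 compounds could not be told apart in these genes, which does not show that they act alike. Among the genes under the filter, *spe-26* had 0.234 to 0.529 RPKM on quercetin and 0.0640 to 0.182 RPKM on lutein. It is named after its values were seen, and as a gene that overlaps a far higher one on the other strand its reads are uncertain if strand was not used in the counting.

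**Figure D5:**
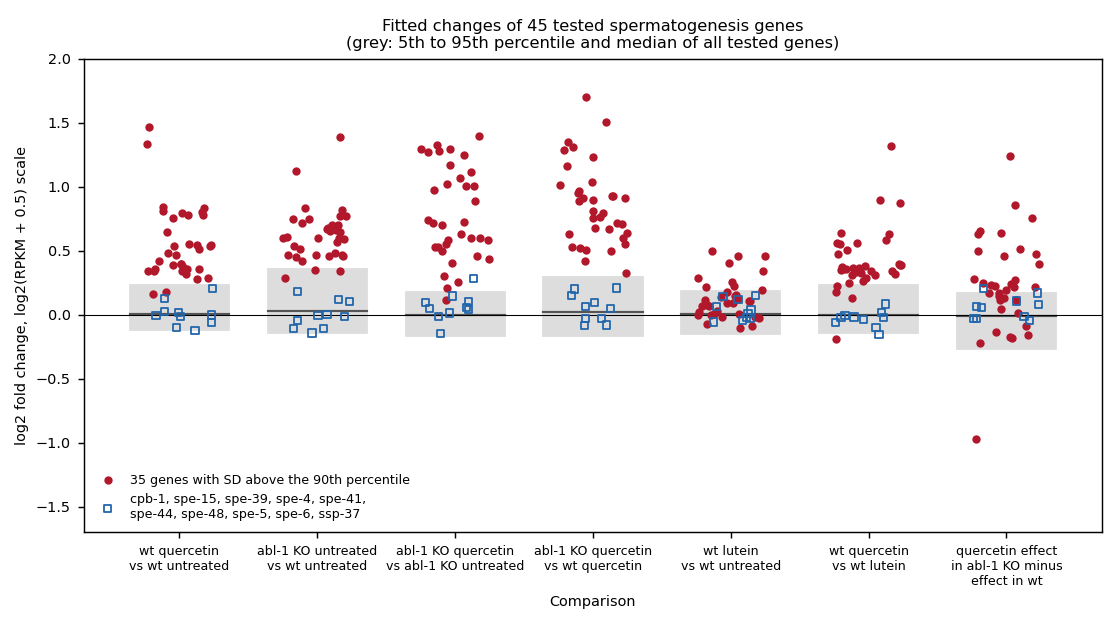
Fitted log2 fold changes (log2(RPKM + 0.5) scale) of the 45 tested spermatogenesis genes in 7 comparisons, 1 point per gene. Blue squares are the 10 genes whose SD within groups was under the 90th percentile of all tested genes, red points the 35 others, and grey boxes span the 5th to 95th percentile of all tested genes with their median as a line. In each comparison more red points lie above 0 than below, and none is called.

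By position, 63 of the 67 names were matched to 1 gene of the Ensembl annotation of WBcel235, which the files also use. Of these, 25 lie on chromosome I, 23 on IV, 7 on V, 5 on III and 3 on II. None lies on X, which holds 13.7% of all 18875 matched genes. Of them, 12 lie within 10000 bases of another one, and with the 4 names placed by RefSeq (*ssp-9*, *ssp-11*, *msd-1* and *msd-3*, all on IV) 18 of 67 do. Some are neighbours across families, as *nspd-1* (chromosome I, 6097579 to 6097791), *spch-3* (6098927 to 6099731) and *ssp-16* (6102067 to 6102396), or *ssp-10* (chromosome IV, 9850702 to 9851031) and *ssq-1* (9852550 to 9853609). A pair of neighbours could also differ: *smz-1* starts 835 bases from *spe-44* on chromosome IV, and *smz-1* ran with the high libraries (0.250 to 4.33 RPKM) while *spe-44* did not (10.7 to 14.5 RPKM). Of the 63 genes, 19 have a single exon, and 10 overlap another coding gene.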

How the data were processed

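Poly(A) RNA of whole animals was read as single 150-base reads from stranded libraries. The authors mapped and counted the reads with CLC Genomics Workbench against WBcel235 and deposited 1 table of RPKM values for 20191 protein-coding genes. Base calls came from bcl2fastq 2.20.0.422 per the labels. Groups follow the labels. Read totals were not used here, and depth was inferred from the spacing of low values, of which 51.1% to 57.7% lay within 0.1 of a whole read (20% by chance), so it is approximate.

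Genes with at least 0.5 RPKM in at least 4 libraries (12771) were tested on log2(RPKM + 0.5) with limma 3.58.1 in R 4.3.3, trend on, all 24 libraries as 5 groups, two-sided, with Benjamini-Hochberg adjustment over all tested genes and calls at an adjusted p of at most 0.05. A fold change on this scale understates the change of low genes. The code was tested on simulated data. Single genes had exact permutation tests on the same scale, 198 in all over 33 genes (scipy 1.17.1), and relations between sums had 100000 permutations. Alternatives were no filter or a stricter one, pseudocounts of 0.1 and 1, another scaling, a replicate block, and leaving out each library. Columns mapped to no sample numbered 0.

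The genes named were the 2 highest by mean of each small family, the 10 highest spe genes, *fer-1*, *cpb-1*, *cpb-2* and *comp-1*, and the 2 highest and 2 lowest fold changes of each comparison. Further members are named to account for their role group or after their values were seen. Members and lists were chosen with earlier results of these data known, and some members stand in a gene list that the study drew from these libraries, so no list is independent of the data. Positions come from Ensembl release 115 and RefSeq, both of WBcel235. Values of 2 members under the filter are not reported here.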

Additional observations from a re-analysis of the deposited data

Results flagged for a closer look

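Within each group the highest and lowest library were compared with the rest by Dixon's criterion for 33 named genes and 9 role sums, 210 groups in all. Of normally spread values chance would mark about 1 in 20. The values were RPKM without a log, on which high values stand apart more easily. Some of the genes were also named for their fold changes in these libraries, so the count cannot be read against that rate. The criterion marked 38, and every one was a high value. In *abl-1* KO untreated replicate 2 these were 22 values that stood above the other 4 libraries. The role sums were 51.1 RPKM for classes Q and S, 100.1 RPKM for the nspd genes, 37.4 RPKM for chromatin and meiosis and 2.41 RPKM for sperm-egg interaction and competition. Among class P and MSP-domain genes they were 18.2 RPKM for *ssp-9*, 13.3 RPKM for *ssp-11* and 20.7 RPKM for *msd-2*. Classes Q and S gave 11.8 RPKM for *ssq-1*, 13.4 RPKM for *ssq-4* and 10.7 RPKM for *sss-1*, and the nspd genes 19.9 RPKM for *nspd-3*, 7.12 RPKM for *nspd-4* and 13.8 RPKM for *nspd-5*. The chromatin and meiosis genes gave 7.81 RPKM for *spch-1*, 11.6 RPKM for *spch-3*, 4.33 RPKM for *smz-1*, 3.43 RPKM for *smz-2*, 4.47 RPKM for *gsp-3* and 2.63 RPKM for *gsp-4*. Others were 1.68 RPKM for *spe-11*, 1.70 RPKM for *spe-41* and 0.460 RPKM for *comp-1*.

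In wt lutein replicate 2 the sum of classes Q and S was 10.7 RPKM, and it stood apart for *cpb-2* (0.119 RPKM), *gsp-3* (1.12 RPKM), *gsp-4* (0.640 RPKM), *msd-1* (3.05 RPKM), *nspd-3* (2.66 RPKM), *nspd-4* (1.63 RPKM), *ssp-9* (5.50 RPKM) and *ssq-1* (3.32 RPKM). In wt quercetin replicate 4 the sums were 21.4 RPKM for chromatin and meiosis and 2.10 RPKM for activation, with 0.250 RPKM for *fer-1*, 5.57 RPKM for *spch-1*, 6.43 RPKM for *spch-3* and 1.14 RPKM for *spe-11*. In wt untreated replicate 2 it was *nspd-3* alone, at 2.09 RPKM. Members of a family share their libraries, so these values are not independent of each other.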

How the results depend on the processing

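No spermatogenesis gene was called in any of 141 alternative fits by comparison, and the smallest adjusted p was 0.164 (*spe-5*, *abl-1* KO untreated against wt untreated, replicate block). Leaving out 1 library moved the median log2 fold change of the tested members to 0.09 to 0.58 for wt quercetin against untreated, 0.03 to 0.81 for *abl-1* KO against wt untreated, 0.38 to 1.06 for *abl-1* KO quercetin against untreated, 0.49 to 1.05 for *abl-1* KO against wt on quercetin, -0.09 to 0.21 for lutein against untreated, 0.0059 to 0.58 for quercetin against lutein and -0.0036 to 0.63 for the interaction. The lutein median was -0.09 without wt lutein replicate 2. The interaction median was -0.0036 without *abl-1* KO untreated replicate 5, 0.63 without *abl-1* KO untreated replicate 2 and 0.91 without that library and wt quercetin replicate 4 together.

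Of 564 values of single genes 19 changed sign, none of them called. For the interaction of *nspd-3* (-0.22) they were 0.26 without wt quercetin replicate 4, 0.01 without *abl-1* KO quercetin replicate 1, 0.32 without replicate 4 of that group, 0.04 and 0.56 without *abl-1* KO untreated replicates 1 and 2, and 1.04 without wt quercetin replicate 4 and *abl-1* KO untreated replicate 2 together, where *ssp-9* gave 0.13. Leaving out 1 library gave *nspd-3* a range of -0.67 to 0.56. For lutein against untreated, *nspd-4* (range over single libraries left out -0.52 to 0.12) turned positive without lutein replicate 1 or 3 or untreated replicate 2, and *nspd-5* (-0.47 to 0.16) without lutein replicate 1 or 3 or untreated replicate 1 or 2. *spe-39* (-0.035 to 0.0071) did so for quercetin in *abl-1* KO without quercetin replicate 3, and *ssp-11* (-0.54 to 0.13) for quercetin against lutein without quercetin replicate 3 or 5 or lutein replicate 4. The cause was not tested.

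With the replicate block the medians were 0.39, 0.54, 0.59 and 0.71 for the first 4 comparisons, 0.02 for lutein, 0.46 for quercetin against lutein and 0.17 for the interaction, and *ssp-11* in quercetin against lutein was 0.012. Over all genes the block called 466 against 61 without it (*abl-1* KO against wt, untreated) and 252 against 62 (on quercetin). Deviations of the 46 same-numbered pairs correlated between -0.61 and 0.67, 37 of them over 0.1, and 15 of 24 libraries matched their own number best. The labels do not say what the replicate number stands for, although their running sample numbers go through the groups replicate by replicate. The study's methods name no pairing, so the main fit and the permutation tests did not treat the libraries as paired. The counts of pairs and matches are a hint from the data that same-numbered libraries deviate together, which those tests leave out. At an estimated 27.4 to 45.3 M reads, genes such as *comp-1* rest on a few reads (median 2.97), and their differences cannot be measured at this depth. With its other tool the study nevertheless lists *comp-1* as raised.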
